A study of Mus musculus with 10 samples.

Results

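Neurotrophins and their receptors were followed here through 8 genes of the cochlear hair cells: the ligands Bdnf, Ntf3 and Ntf5, the receptors Ntrk2, Ntrk3 and Ngfr, and Gfra1 and Ret. The members were taken by name from the gene table, which lists 48440 genes. Gfra1 and Ret are not neurotrophin receptors. They form the receptor for GDNF, another family of trophic factors, and are described with that family. Hair cells were picked one by one with a suction pipette from cochleae of CBA/J mice aged 28 to 32 days, and the labels name no treatment and no engineered allele. The methods of the study give a somewhat higher upper age than the labels. The groups were inner hair cells (IHCs, 2 libraries) and outer hair cells (OHCs, 3 libraries), each library from about 1000 cells. Each library was sequenced in 2 lanes that were averaged. The leading number of the label and the second index sequence were the same within a cell type and differed between the types. A difference tied to these labels cannot be told apart from a difference of cell type. The study describes collecting both IHCs and OHCs from each mouse, so libraries of the cell types may share mice. Which mice gave which library is not stated, so a p-value covers the variation among these 5 libraries alone, and that variation may be technical.

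Neurotrophins are secreted growth factors that keep neurons alive and shape their synapses. Each is made as a precursor, cut by a protease at a short basic site, and released as a dimer. BDNF and NT-4 (the product of Ntf5) act through the receptor kinase TrkB (Ntrk2), and NT-3 (Ntf3) acts mainly through TrkC (Ntrk3). All of them, and their precursors, also bind p75 (Ngfr). In the cochlea, BDNF and NT-3 from the sensory epithelium support the spiral ganglion neurons, which carry TrkB and TrkC. IHCs are the main synaptic partners of these neurons, whereas OHCs act as mechanical amplifiers and receive few afferent fibres.

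The coding sequence around the cut site is shown for the 3 ligands among the members, because it holds the processing site that they share and shows how their sequences differ. The stretches of 60 bases were read from GENCODE M21 transcripts of GRCm38 (Bdnf on chromosome 2, plus strand; Ntf3 on chromosome 6, minus strand; Ntf5 on chromosome 7, plus strand). Capitals mark the 4 codons of the basic site, after which the mature factor begins.
Bdnf: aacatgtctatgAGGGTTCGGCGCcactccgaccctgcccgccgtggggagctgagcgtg
Ntf3: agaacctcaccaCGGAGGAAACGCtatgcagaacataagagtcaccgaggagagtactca
Ntf5: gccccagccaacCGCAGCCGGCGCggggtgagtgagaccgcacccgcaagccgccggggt
The coding bases of the mature factors were 59% identical between Bdnf and Ntf3, 56.7% between Bdnf and Ntf5 and 59.1% between Ntf3 and Ntf5. By sequence the members could be told apart: Ntf3 shared no word of 31 bases with another gene, and Ntf5, Ntrk2, Ntrk3 and Ngfr shared 0.652% to 1.49% of theirs. Bdnf shared 13.5% and Gfra1 7.05%. Their exons overlap on 896 and 416 bases with the antisense genes Gm45346 (0 RPKM in IHCs and OHCs) and Gm16277 (0.037 RPKM in IHCs and 0 in OHCs).

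Levels are given in RPKM as deposited, a read number divided by exon length in kilobases and by the mapped reads of the lane. As recovered from the deposited values, the divisors of the libraries were 22248104 and 20375240 reads in IHCs and 19987044 to 23083994 in OHCs. The methods of the study report a larger number of sequenced reads per sample. The cell type labels fitted the defining markers. Otof, which encodes otoferlin of the IHC synapse, had 214 and 207 RPKM in IHCs, against 14.2, 13.4 and 13.8 RPKM in OHCs. Slc26a5, the motor protein prestin of OHCs, had 10.1 and 8.91 RPKM in IHCs, against 544, 553 and 550 RPKM in OHCs. Markers of each hair cell type were also read in the other. In OHCs, Otof stood at 0.0656 and Slc17a8, also of IHCs, at 0.056 of the IHC level. In IHCs, Slc26a5 stood at 0.0173 and Ocm, also of OHCs, at 0.0296 of the OHC level. The OHC levels of Ntf3, Ntrk2 and Ngfr were 0.0376, 0.0418 and 0.0512 of their IHC levels, below those of Otof and Slc17a8. The part of IHC RNA in them was not tested. Genes listed as markers of cells other than hair cells were read in both groups. Whether their RNA came from such cells was not tested. Of 17 markers of supporting cells, 8 had higher levels in IHCs and 5 in OHCs, with summed levels of 15459 to 15818 RPKM in IHCs and 12232 to 13067 RPKM in OHCs. Most of this was Fbxo2 and S100a1, the second of which was not called, and the other 15 markers summed to 1081 to 1084 RPKM in IHCs and 665 to 670 RPKM in OHCs. Of 18 markers of blood and vessels, 12 were tested and all 12 were higher in OHCs (sums of 350 to 363 RPKM in IHCs and 1650 to 1760 RPKM in OHCs). Higher in OHCs were also 11 of 16 markers of fibrocytes and stria vascularis (383 RPKM in both IHC libraries and 771 to 791 RPKM in OHCs). The same held for 7 of 14 markers of Schwann cells and satellite glia (108 to 111 RPKM in IHCs and 133 to 138 RPKM in OHCs). The order of the glial sum rested on Mal (68.5 RPKM in IHCs and 84 RPKM in OHCs) and Fabp7 (4.52 and 22.1 RPKM). Sox10, the 1 glial marker called higher in IHCs, had 26.7 RPKM in IHCs and 13.4 RPKM in OHCs. Of 15 markers of neurons, 3 had higher levels in IHCs (Nefl, Nefm and Sncg) and 6 in OHCs, with sums of 91.4 to 91.7 RPKM in IHCs and 113 to 117 RPKM in OHCs. The neuronal sum rested on Isl1 (23.2 RPKM in IHCs and 93.9 RPKM in OHCs), and without it the order turned, with 68.0 to 68.6 RPKM in IHCs and 20.9 to 22.3 RPKM in OHCs. The sums without single genes were added after their values were seen. Some markers reached the 0.1 RPKM needed for a test in OHC libraries alone, so the filter largely set their direction. These were Acta2, Ngp, Pdgfrb and Pecam1 of blood and vessels, Col3a1 and Kcne1 of the stria list, Nrn1 and Rbfox3 of neurons, and Prox1 of supporting cells. Of all genes tested, 34.4% were called higher in IHCs and 34.4% in OHCs. The neuronal markers Prph, Chat and Th and the marker Pax3 of the stria list were at 0 in all libraries. In bulk RNA, fewer cells that express a gene and less RNA per cell cannot be told apart.

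The members split by cell type. Of the 6 members that reached 0.1 RPKM in 2 or more libraries, Ntf3, Bdnf, Ntrk2 and Ngfr had higher levels in IHCs, Gfra1 had a higher level in OHCs, and Ntf5 did not pass the test at an adjusted p under 0.05 (limma on log2(RPKM + 0.1), Benjamini-Hochberg over 16462 genes). Ntrk3 and Ret stood under that filter and had no read in IHCs. Of all genes tested, 34.4% had a higher level in IHCs and 34.4% in OHCs, and in 79.2% the libraries of the cell types did not overlap, so that a call alone does not set a member apart. The size of the difference varied more: the Ntf3 difference ranked 52nd toward IHCs among all genes tested and that of Ntrk2 118th. Ngfr passed the filter only through the IHC libraries and Gfra1 only through the OHC libraries, so their counts are no evidence of a direction of the set.

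**Figure D1:**
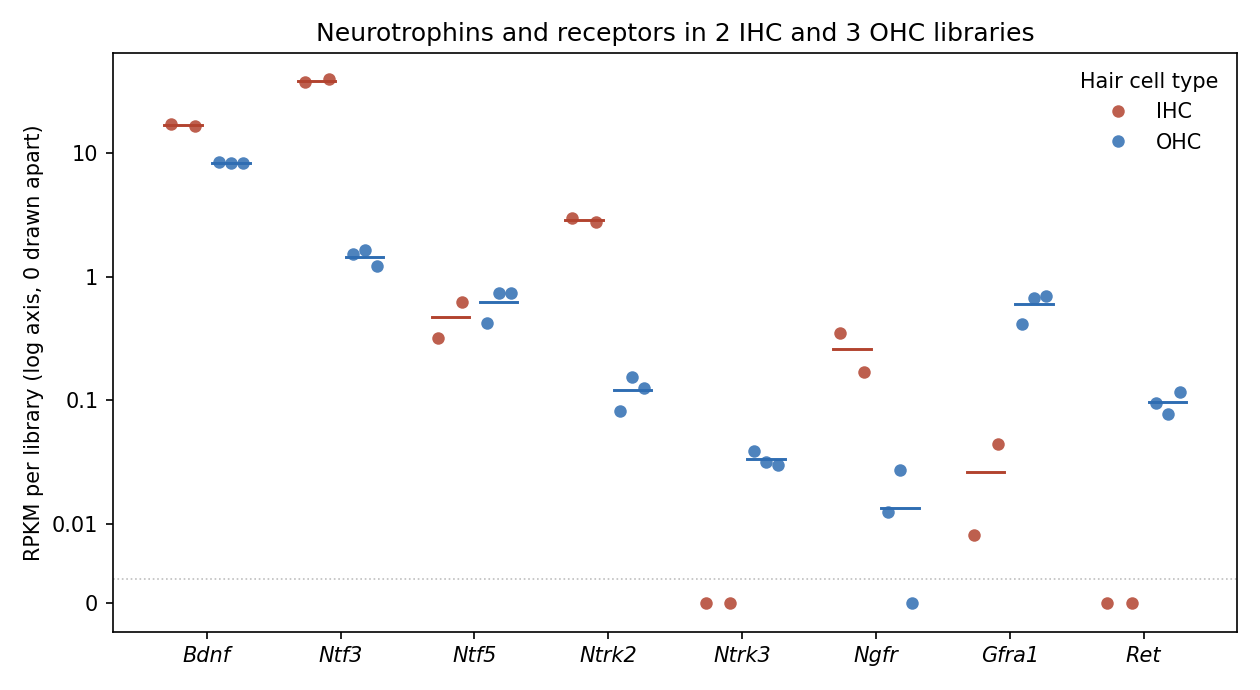
Level of each member in RPKM on a log axis, with 1 point per library (2 of IHCs, 3 of OHCs), a line at the mean and values of 0 drawn below the dotted line. Ntf3 was 26.6-fold and Ntrk2 23.9-fold higher in IHCs, Ntf5 overlapped, and Ntrk3 and Ret were at 0 in both IHC libraries.

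Ntf3 (ENSMUSG00000049107, GRCm38 chromosome 6, 126101412 to 126166910, minus strand) encodes NT-3, the ligand of TrkC. It had 37.8 and 39.9 RPKM in IHCs, against 1.52, 1.64 and 1.22 RPKM in OHCs. Both IHC libraries lay far above every OHC library, and the values rest on 1442 and 1393 reads in IHCs, against 60, 59 and 42 reads in OHCs. Ntf3 was 26.6-fold higher in IHCs (38.8 ± 1.47 RPKM in IHCs, SD, n = 2, and 1.46 ± 0.213 RPKM in OHCs, SD, n = 3). The log2 difference was 4.65 (SE, standard error, 0.122, adjusted p = 2.36e-06). Among the genes tested, Ntf3 stood at the 89.8th percentile of level in IHCs and at the 38.6th in OHCs.

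Bdnf (ENSMUSG00000048482, chromosome 2, 109674700 to 109727007, plus strand), the ligand of TrkB, had 17.4 and 16.8 RPKM in IHCs, against 8.47, 8.31 and 8.34 RPKM in OHCs. The groups did not overlap, and the libraries of each lay close together. Bdnf was 2.04-fold higher in IHCs (17.1 ± 0.389 RPKM in IHCs and 8.37 ± 0.0884 RPKM in OHCs), a log2 difference of 1.02 (SE 0.0400, adjusted p = 9.06e-06). It was the strongest neurotrophin of OHCs and was detected with 1036 to 1216 reads in each of their libraries.

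Ntf5 (ENSMUSG00000074121, chromosome 7, 45413695 to 45417179, plus strand), the second ligand of TrkB, was weak in both cell types. It had 0.322 and 0.629 RPKM in IHCs, against 0.425, 0.736 and 0.736 RPKM in OHCs. The groups overlapped, and the log2 difference of -0.37 did not pass the test (adjusted p = 0.353), with a 95% confidence interval of -1.18 to 0.44. The interval includes more than a 2-fold lower level in IHCs.

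The makeup of the ligands differed between the cell types. The level of Ntf3 over that of Bdnf was 2.18 and 2.37 in IHCs, against 0.179, 0.197 and 0.147 in OHCs. The order of the ligands was thus turned round in every library, with Ntf3 first in IHCs and Bdnf first in OHCs. On the log2 scale the ratio was 1.18 ± 0.0873 in IHCs and -2.53 ± 0.217 in OHCs (SD, n = 2 and 3). The exact permutation test gave p = 0.1 (two-sided), the smallest that the 10 splits of 5 libraries allow. The 3 ligands summed to 56.4 ± 1.29 RPKM in IHCs and 10.5 ± 0.196 RPKM in OHCs. Ntf3 made up 68.1% and 69.6% of this sum in IHCs, against 14.6%, 15.3% and 11.9% in OHCs, and Bdnf 31.3% and 29.3% in IHCs, against 81.4%, 77.8% and 81% in OHCs.

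**Figure D2:**
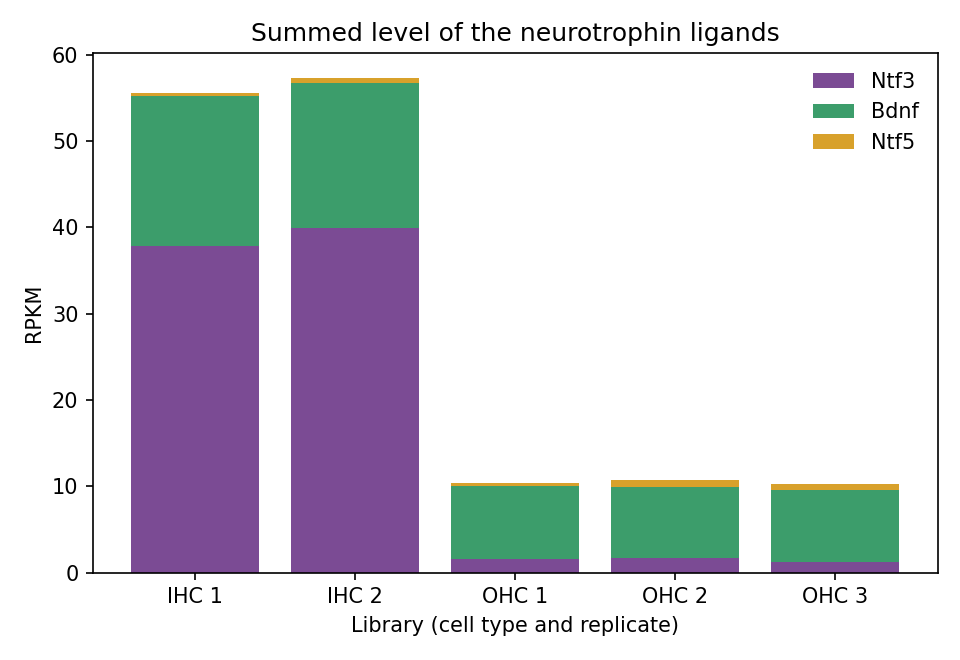
Summed RPKM of Ntf3, Bdnf and Ntf5 in each of the 2 IHC and 3 OHC libraries, stacked by gene on an axis that starts at 0. The IHC libraries reached 55.5 and 57.3 RPKM and were mostly Ntf3, while the OHC libraries reached 10.3 to 10.7 RPKM and were mostly Bdnf.

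One window upstream of each of the 2 main ligands is shown, because these genes carry the difference in ligand makeup and these windows hold a motif that was searched for. RefSeq promoters of GRCm38.p6 were found for 5 of the 8 members (7 for Bdnf, 2 for Ntf3, 1 each for Ntrk2, Ngfr and Gfra1). Searched on both strands were TGACGTCA, the cyclic AMP response element, with its core TGACG, which lies within it, and the E-boxes CACGTG and CAGCTG. Of 32851 promoters of 300 bases, 1.79% held TGACGTCA, 20.8% TGACG, 7.15% CACGTG and 16.3% CAGCTG. The windows printed are the 250 bases before the start, with matches in capitals: chr2:109692186-109692435 on the plus strand for Bdnf and chr6:126166745-126166994 on the minus strand for Ntf3.
Bdnf: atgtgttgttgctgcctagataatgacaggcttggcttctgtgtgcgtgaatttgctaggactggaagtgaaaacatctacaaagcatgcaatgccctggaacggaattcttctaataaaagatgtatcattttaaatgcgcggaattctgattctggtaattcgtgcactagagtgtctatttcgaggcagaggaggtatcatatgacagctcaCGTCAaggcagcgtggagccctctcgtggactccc
Ntf3: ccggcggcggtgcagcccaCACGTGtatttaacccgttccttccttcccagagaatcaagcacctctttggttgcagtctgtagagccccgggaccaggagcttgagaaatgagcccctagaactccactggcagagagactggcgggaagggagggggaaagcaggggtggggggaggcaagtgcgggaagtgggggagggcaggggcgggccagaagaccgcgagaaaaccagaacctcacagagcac
Over the whole windows of 300 bases, that of Bdnf held 1 TGACG, read on the opposite strand, and that of Ntf3 1 CACGTG. One other Bdnf promoter and those of Ngfr and Gfra1 held 1 CAGCTG each, and that of Ntrk2 none of the motifs. A match is a description of the letters, not of a bound site, and gene-level values do not tell which Bdnf or Ntf3 promoter was in use.

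Ntrk2 (ENSMUSG00000055254, chromosome 13, 58806569 to 59133970, plus strand) encodes TrkB. It had 3.0 and 2.8 RPKM in IHCs, against 0.0816, 0.155 and 0.127 RPKM in OHCs, from 923 and 787 reads in IHCs and 26, 45 and 35 reads in OHCs. Every IHC library lay above every OHC library. Ntrk2 was 23.9-fold higher in IHCs (2.9 ± 0.147 RPKM in IHCs and 0.121 ± 0.037 RPKM in OHCs), a log2 difference of 3.78 (SE 0.189, adjusted p = 2.2e-05). The gene makes a full-length receptor with a kinase and truncated forms without it, and a value per gene does not tell which were present. Ntrk2 is also expressed by neurons, glia and supporting cells. Among markers of supporting cells, Slc1a3, a glutamate transporter of the cells around IHCs, had 132 and 130 RPKM in IHCs, against 7.66, 7.49 and 7.87 RPKM in OHCs. The study also lists primers for Slc1a3 in its quantitative PCR of further IHCs and OHCs. Which cells gave the Slc1a3 reads was not tested here. Sox10, a glial and supporting cell factor, had 27.8 and 25.6 RPKM in IHCs, against 13.8, 12.7 and 13.7 RPKM in OHCs. It was the 1 marker of the glial list with a higher level in IHCs, while Fabp7, a glial fatty acid binding protein (4.52 RPKM in IHCs and 22.1 RPKM in OHCs), Mbp of myelin (0.904 RPKM in IHCs and 1.88 RPKM in OHCs) and 5 others had higher levels in OHCs. Of the neuronal list, Sncg, a synuclein, had 25.2 and 27.5 RPKM in IHCs, against 2.23, 2.9 and 2.0 RPKM in OHCs. Nefl and Nefm, neurofilament subunits, lay in the same direction, with 32.0 and 7.33 RPKM in IHCs, against 5.95 and 3.78 RPKM in OHCs. The 6 other neuronal markers called were higher in OHCs: Isl1, Tubb3, Uchl1, Nefh, Rbfox3 and Nrn1. Tubb3 had 0.237 RPKM in IHCs and 1.37 RPKM in OHCs, and Nefh 1.27 RPKM in IHCs and 4.49 RPKM in OHCs. Among supporting cell markers, Fgfr3, of pillar and Deiters' cells, went opposite to Slc1a3. It had 0.691 and 0.72 RPKM in IHCs, against 31.4, 32.7 and 32.4 RPKM in OHCs. The part of supporting cells, glia and neurons in the levels of Ntrk2, Ntf3 and Bdnf was not tested.

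Ngfr (ENSMUSG00000000120, chromosome 11, 95568818 to 95587735, minus strand) encodes p75, which binds all neurotrophins. It was weak, with 0.352 and 0.171 RPKM in IHCs, against 0.0125, 0.0276 and 0 RPKM in OHCs. The reads were 27 and 12 in IHCs, against 1, 2 and 0 in OHCs, so the OHC libraries were under the floor of 3 reads. The mean was 19.5-fold higher in IHCs, with a 95% counting interval from the reads of 6.21 to 98.9, and the log2 difference was 1.63 (SE 0.286, adjusted p = 0.00341). Counting intervals and floors cover counting error only, since PCR copies of one molecule were not marked.

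Ntrk3 (ENSMUSG00000059146, chromosome 7, 78175959 to 78738012, minus strand), which encodes TrkC, had no read in either IHC library, against 27, 20 and 18 reads in OHCs. These correspond to 0 RPKM in IHCs and to 0.0388, 0.0315 and 0.0299 RPKM in OHCs. With IHCs set at 3 reads per library, Ntrk3 was at least 7.14-fold higher in OHCs (exact permutation p = 0.1, two-sided, the smallest possible). Ntrk3 was thus not detected in IHCs at this depth and weak in OHCs, while its ligand Ntf3 was strong in IHCs.

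**Figure D3:**
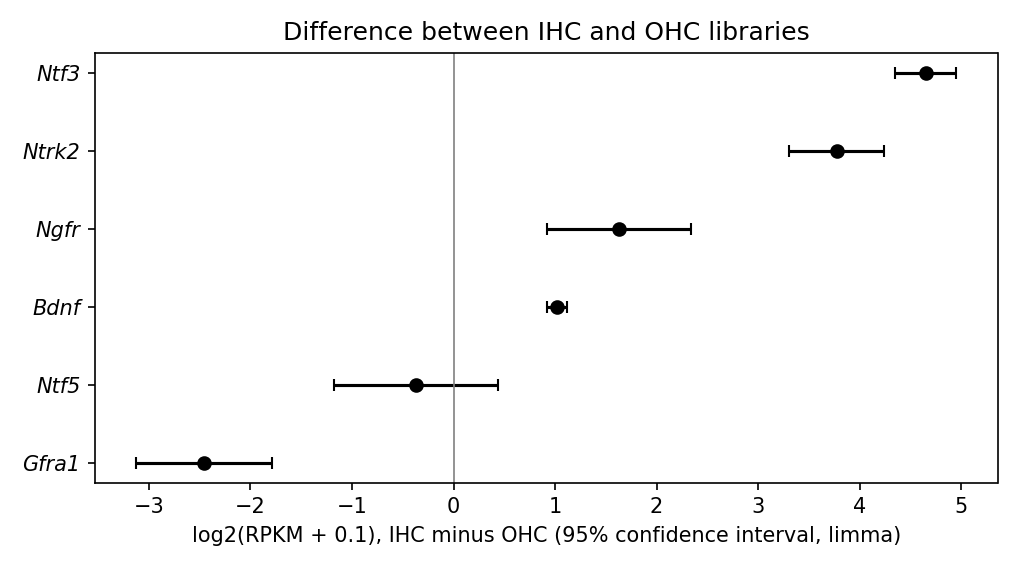
Log2 difference, IHC minus OHC, of the 6 members tested, with 95% confidence intervals from limma on log2(RPKM + 0.1). Ntf3, Ntrk2, Ngfr and Bdnf lay above 0, Gfra1 lay at -2.46, and the interval of Ntf5 crossed 0.

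The differences of weak members on this scale depended on the 0.1 RPKM added. With 1 RPKM added, the log2 difference was 1.8 for Ntrk2, 0.31 for Ngfr and -0.64 for Gfra1, and with 0.01 RPKM it was 4.51 for Ntrk2, 3.65 for Ngfr and -4.24 for Gfra1. All 3 kept their call.

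Of 12 receptors and co-receptors, 2 had higher levels in IHCs (Ntrk2 and Ngfr), 5 in OHCs, and 2 showed no call, while 3 stood under the filter, Ntrk3 among them. The median log2 difference of the tested genes was -0.87, against -0.01 over all genes tested, of which 34.4% were called in each direction. Ngfr passed the filter only through IHCs, and Sorcs2 and Sorcs3 only through OHCs, so that neither the count nor the median is evidence of a direction of the list. Without either IHC library the 2 became 1, as Ngfr was not tested. The 5 were Sorl1, Sorcs1, Sorcs2 and Sorcs3 of the sortilin family and Nradd, a homologue of p75. Nradd had 0.173 and 0.27 RPKM in IHCs, against 2.72, 2.51 and 2.67 RPKM in OHCs (11.9-fold higher in OHCs, log2 difference -3.10, SE 0.160, adjusted p = 2.46e-05). Sorcs2, which binds proneurotrophins together with p75, had 3 and 0 reads in IHCs, against 113, 102 and 78 reads in OHCs (adjusted p = 0.000103). Sorcs1 was 6.62-fold and Sorl1, a sorting receptor, 1.95-fold higher in OHCs (22.8 ± 0.799 RPKM in IHCs and 44.5 ± 0.668 RPKM in OHCs for Sorl1). Sort1, sortilin itself, had 13.9 RPKM in both IHC libraries, against 13.4, 13.3 and 13.3 RPKM in OHCs, and its log2 difference of 0.06 did not pass the test (adjusted p = 0.185). Sorcs3 was the weakest of the 5 calls, which ended without either IHC replicate 1 (adjusted p = 0.0715) or IHC replicate 2 (0.167).

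Gfra1 and Ret followed the opposite direction to the ligand GDNF. Gfra1 (ENSMUSG00000025089, chromosome 19, 58235604 to 58455909, minus strand) encodes the membrane-anchored receptor that binds GDNF. It had 0.00819 and 0.0448 RPKM in IHCs, against 0.419, 0.677 and 0.703 RPKM in OHCs. The reads were 1 and 5 in IHCs, against 53, 78 and 77 in OHCs, with no overlap. Gfra1 was 22.6-fold higher in OHCs (95% counting interval 10.4 to 63.6), a log2 difference of -2.46 (SE 0.27, adjusted p = 0.000492).

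Ret (ENSMUSG00000030110, chromosome 6, 118151745 to 118197718, minus strand) encodes the receptor kinase that signals for all GFRα receptors. It had 0 reads in both IHC libraries, against 15, 11 and 16 reads in OHCs, or 0.096, 0.0773 and 0.118 RPKM. Ret was at least 4.66-fold higher in OHCs with IHCs set at 3 reads per library (exact permutation p = 0.1, two-sided). Without the filter, limma called both Ret (log2 difference -0.97, adjusted p = 0.0033) and Ntrk3 (-0.41, adjusted p = 0.0344) higher in OHCs, and 58.8% of the 19961 genes tested in this way were called. The levels of Gfra1 and Ret in OHCs were low. Summed markers of blood and vessels, of fibrocytes and, through Mal and Fabp7, of glia were higher in the same libraries. The part of these cells in Gfra1, Ret and Ntrk3 was not tested.

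Gdnf itself, the ligand, had 7.12 and 7.45 RPKM in IHCs, against 0.136, 0.136 and 0.228 RPKM in OHCs, from 556 and 533 reads in IHCs and 11, 10 and 16 reads in OHCs. It was 43.7-fold higher in IHCs (log2 difference 4.81, SE 0.186, adjusted p = 8.64e-06), against 26.6-fold for Ntf3. Nrtn, neurturin, had 15.6 and 16.3 RPKM in IHCs, against 9.02, 7.86 and 6.8 RPKM in OHCs, 2.02-fold higher in IHCs. Artn, artemin, ran against both, with 15.2 and 15.5 RPKM in IHCs and 26.7, 25.5 and 24.3 RPKM in OHCs (1.66-fold higher in OHCs, adjusted p = 7.19e-05). Pspn, persephin, had 7 and 6 reads in IHCs, against 2, 0 and 0 reads in OHCs (adjusted p = 0.00675). The 4 ligands of this family were thus all detected in IHCs.

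The receptors that pair with these ligands were weak throughout. Gfra2, the receptor of neurturin, had 7 and 3 reads in IHCs and none in OHCs, and could not be tested when either IHC library was left out. Gfra3, the receptor of artemin, had 0 RPKM in all libraries although Artn was among the stronger ligands. Gfra4, the receptor of persephin, had 0.131 ± 0.0388 RPKM in IHCs and 0.502 ± 0.0555 RPKM in OHCs. Ncam1, an adhesion molecule that can bind GDNF without Ret, had 0.0787 and 0.104 RPKM in IHCs, against 0.498, 0.607 and 0.544 RPKM in OHCs. Of 14 genes of this family list, 11 were tested: 5 had higher levels in IHCs, 5 in OHCs, and 1 showed no call. Over all genes tested, 34.4% were called in each direction. The median log2 difference was 0.45, against -0.01 over all genes tested. Gfra2 passed the filter only through IHCs and Gfra1 only through OHCs.

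**Figure D4:**
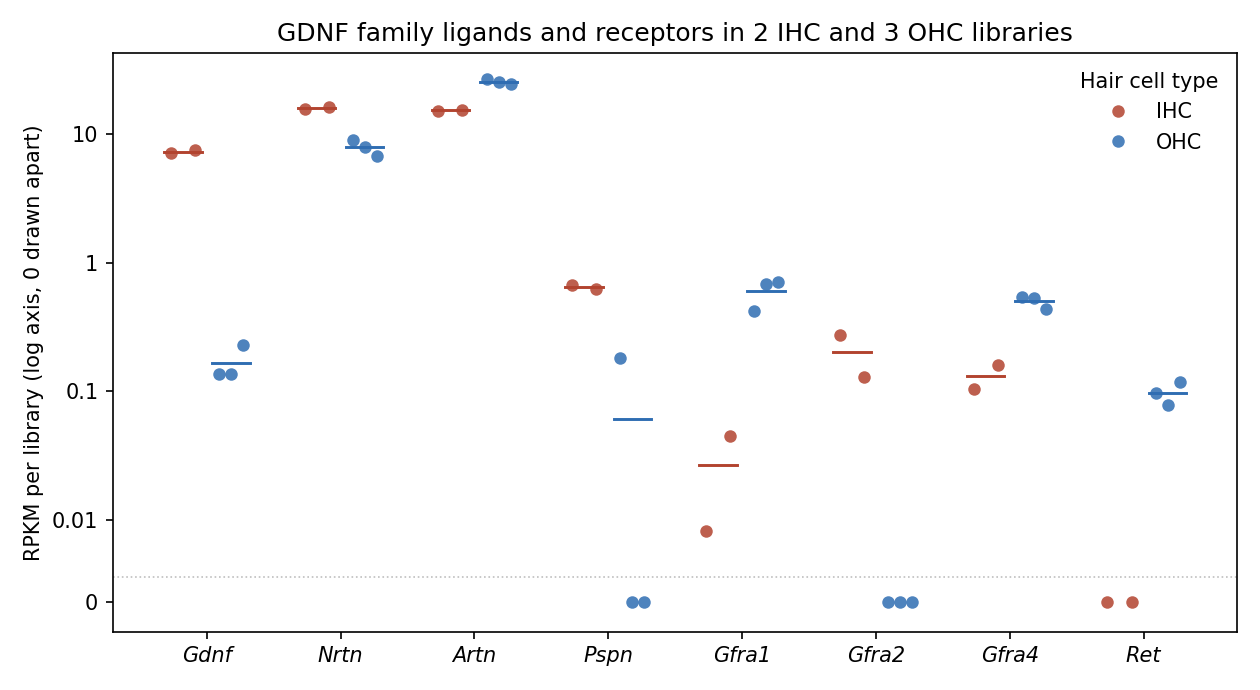
Level of GDNF family ligands and receptors in RPKM on a log axis, 1 point per library with a line at the mean and values of 0 drawn below the dotted line. Gdnf, Nrtn and Pspn were higher in IHCs, and Gfra1, Gfra4 and Artn higher in OHCs, with Ret at 0 in IHCs and Gfra2 at 0 in OHCs.

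Within a cell type the order of the members, per length of exon, was Ntf3, Bdnf, Ntrk2, Ntf5, Ngfr, Gfra1 in IHCs, with Ntrk3 and Ret at 0. Neighbours in this order did not overlap between libraries, apart from Ntf5 and Ngfr. In OHCs the order was Bdnf, Ntf3, Ntf5, Gfra1, Ntrk2, Ret, Ntrk3, Ngfr, in which Ntf5 overlapped with Gfra1 and Ntrk2 with Ret. Receptors lay below the main ligands in both cell types: Ntrk2 reached 0.0795 and 0.0701 of the Ntf3 level in IHCs, against 0.0538, 0.0946 and 0.104 of it in OHCs.

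The genes whose levels were most like those of a member over the 5 libraries were found by the root mean square difference in log2(RPKM + 0.1), among 10358 genes. For Ntf3 they were Fam65c (0.294), Fndc5, the precursor of irisin (0.348), and Kcnab1, an auxiliary potassium channel subunit (0.402). Ntrk2 was closest to Fes, a cytoplasmic tyrosine kinase (0.113), Fam171b (0.188) and Pygm, the glycogen phosphorylase of muscle (0.262). For Bdnf they were Dera (0.0586), Amdhd2 (0.0587) and Ubqln4 (0.0609). These are likenesses of level only, over libraries that share cell type.

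Genes that cut and release neurotrophins were called in both directions, as were all genes tested (34.4% each way). A count of calls alone therefore does not set a list apart. Of 20 genes of processing and secretion, 14 were tested: 4 had higher levels in IHCs, 8 in OHCs, and 2 showed no call (median log2 difference -0.38). The 4 became 1 without IHC replicate 1 and 1 without IHC replicate 2. Mmp9 and Pcsk1 passed the filter only through IHCs and Cadps only through OHCs. Pcsk6, a proprotein convertase, had 2.61 and 2.08 RPKM in IHCs, against 13.6, 14.3 and 13.6 RPKM in OHCs (5.9-fold higher in OHCs, adjusted p = 9.14e-06). The CAPS proteins, which prime dense-core vesicles for release, split between the cell types. Cadps2, known to promote BDNF release, had 1.42 and 1.62 RPKM in IHCs, against 0.172, 0.204 and 0.183 RPKM in OHCs (8.14-fold higher in IHCs, adjusted p = 4.19e-05). Cadps had 0 reads in both IHC libraries, against 43, 34 and 45 reads in OHCs (adjusted p = 0.000234). Mmp9, a protease that can cut proneurotrophins outside the cell, had 36 and 31 reads in IHCs and none in OHCs (adjusted p = 9.31e-05), and could not be tested when either IHC library was left out. Cpe, carboxypeptidase E and the strongest of the list, had 255 and 256 RPKM in IHCs, against 235, 242 and 244 RPKM in OHCs. Its log2 difference of 0.09 (adjusted p = 0.0288) turned to -0.08 under quantile normalization, where it was not called.

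Of 41 genes of Trk adaptors and signalling, 39 were tested: 15 had higher levels in IHCs, 15 in OHCs, and 9 showed no call (median log2 difference 0.04). The share over all genes tested was 34.4% in each direction. Without IHC replicate 2, 14 had higher levels in IHCs and 7 in OHCs. Sh2b2, an adaptor of receptor kinases, had 0.149 and 0.118 RPKM in IHCs, against 6.1, 6.32 and 6.12 RPKM in OHCs, 46.3-fold higher in OHCs (adjusted p = 1.17e-06). Shc2, an adaptor that binds Trk receptors, had 7.35 and 6.95 RPKM in IHCs, against 1.01, 0.903 and 0.841 RPKM in OHCs, 7.8-fold higher in IHCs (adjusted p = 6.91e-06). Map2k5, the kinase above ERK5, was 2.53-fold higher in IHCs, Map2k1, the kinase above ERK, 1.29-fold higher in IHCs, and Rps6ka5, a CREB kinase, 2.46-fold higher in OHCs. These adaptors also serve other receptor kinases.

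Of 12 adaptors of p75, all tested, 3 had higher levels in IHCs, 6 in OHCs, and 3 showed no call (median log2 difference -0.24). The share over all genes tested was 34.4% in each direction. Arhgdia was 1.61-fold and Irak1 1.69-fold higher in IHCs. Mapk8, the kinase JNK1, was 2.64-fold and Ngfrap1, a p75-associated protein, 1.25-fold higher in OHCs, and the call toward OHCs of Bex1, which shares 40% of its 31-base words with other genes, ended with the first lanes only (adjusted p = 0.269) and without the second lanes of IHC replicates 1 and 2 and OHC replicate 1 (adjusted p = 0.27). Of 10 Ret adaptors, 8 were tested: 4 had higher levels in IHCs, 2 in OHCs, and 2 showed no call (median 0.32), although Ret had no read in IHCs. Dok5 had 0.407 and 0.861 RPKM in IHCs and 0 RPKM in OHCs. Dok5 passed the filter only through IHCs and could not be tested when either IHC library was left out. The count is therefore no evidence of a direction of the list. Dok4 was 3.59-fold higher in IHCs, but its exons overlap on 953 bases with Polr2c on the opposite strand (68.8 RPKM in IHCs and 55.9 RPKM in OHCs), whose reads cannot be told apart. Pdlim7 was 1.79-fold higher in IHCs, and Stat3 was 1.29-fold higher in OHCs. Src was called higher in OHCs (adjusted p = 0.0129), a call that ended without IHC replicate 2 (0.0859), where the 2 Ret adaptors of OHCs became 1.

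Of 24 regulators of Bdnf transcription that depend on activity, 20 were tested, against a share of 34.4% called in each direction over all genes. Among the 20, 8 had higher levels in IHCs, 7 in OHCs, and 5 showed no call (median -0.01). The 8 became 5 without IHC replicate 1. Bhlhe40, a transcriptional repressor, had 8.83 and 10.1 RPKM in IHCs, against 1.81, 1.7 and 2.1 RPKM in OHCs, 5.06-fold higher in IHCs (adjusted p = 2.06e-05). Crem was 1.87-fold and Camk2b, a calcium-dependent kinase, 1.37-fold higher in IHCs, while Mef2d was 1.75-fold higher in OHCs. Camk2a was near the limit of detection (0.0213 RPKM in IHCs and 0.111 RPKM in OHCs) and lost its call without either IHC library (adjusted p = 0.0773 and 0.198). Creb1 differed little (3.07 RPKM in IHCs and 2.96 RPKM in OHCs) and was not called, and Npas4 and Neurod2 were listed at 0.

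Of 22 other neurotrophic factors and receptors, 19 were tested: 6 had higher levels in IHCs, 9 in OHCs, and 4 showed no call (median -0.26). The share over all genes tested was 34.4% in each direction. Igf1r, the receptor of insulin-like growth factor, had 1.11 and 0.968 RPKM in IHCs, against 5.77, 5.69 and 5.52 RPKM in OHCs, 5.46-fold higher in OHCs (adjusted p = 6.61e-06). The heparin-binding factors Mdk and Ptn were 3.24-fold and 1.51-fold higher in OHCs. Igf2 was weak (0.0172 RPKM in IHCs and 0.196 RPKM in OHCs, adjusted p = 0.00266) and passed the filter only through OHCs. Of its exon bases, 62.8% overlap Gm49394 on the same strand, and 63.1% of its 31-base words are shared with other genes, so its level is uncertain.

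**Figure D5:**
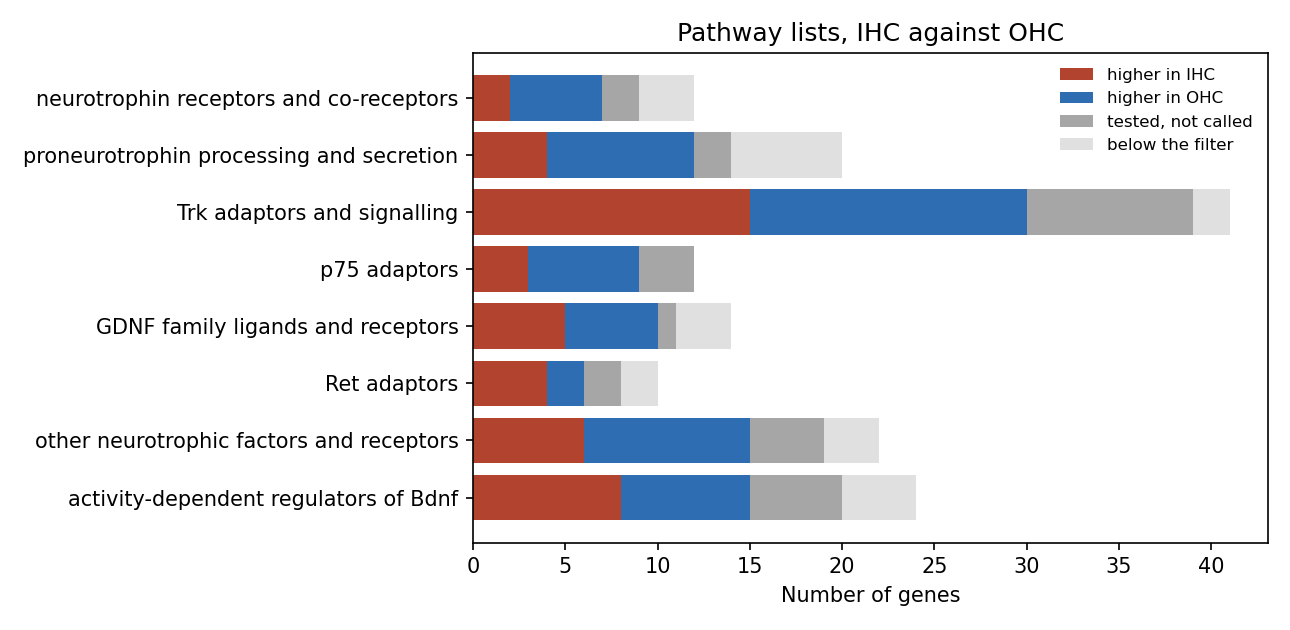
Number of genes of 8 pathway lists that were higher in IHCs, higher in OHCs, tested and not called, or under the filter of 0.1 RPKM in 2 libraries (limma, adjusted p under 0.05). Receptors and co-receptors had 2 higher in IHCs and 5 higher in OHCs, and the Trk signalling list had 15 in each direction. Over all genes tested, 34.4% were called in each direction.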

How the data were processed

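The authors mapped reads of 100 bases from both ends to GRCm38 with CLC Genomics Workbench, derived gene levels with HTSeq count (versions not given in the sources used here) and deposited RPKM values per lane. The cDNA kit does not mark strand. Here the 2 lanes of a library were averaged, and genes that reached 0.1 RPKM in 2 or more libraries were analysed as log2(RPKM + 0.1) with limma 3.58.1 in R 4.3.3 (variance trend, two-sided, Benjamini-Hochberg, threshold 0.05, IHC minus OHC). A fold is the ratio of mean RPKM.

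Whole reads were recovered from the deposited RPKM by multiplying by exon length and the divisor of the lane. The GENCODE M21 length gave whole reads, within 0.01 reads, for 69.77% to 70.63% of values, and for 5737 genes, Ntrk2 among them, a length was found from the values. For Ntrk2 this was 13806 bases. The recovered reads gave the floors and voom, which over all genes called 5867 with a higher level in IHCs and 5740 in OHCs. Earlier results of these data set the second lanes of IHC replicates 1 and 2 and of OHC replicate 1 apart from the other 7 lanes, and results were repeated with those 7. A simulation of the comparison over 16214 genes tested the steps: of 100 genes changed 2-fold 74% were called, and of 100 changed 4-fold 87%. Of the unchanged genes, 10 were called. The simulation assumed a spread between libraries and changed few genes, whereas 68.8% of genes were called in the data. Its rates therefore do not give the sensitivity of the real comparison.

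The members, the gene lists and the rule for named genes were chosen with earlier results of these data known. The rule takes all members, and of each list up to 4 called genes with the largest difference and the gene of highest mean. Partners of the members and genes that did not pass the test were also named, and Creb1 was chosen after its values were seen. Alternatives were other pseudocounts, filters, scalings, lanes, variance models, the replicate number as a block, voom and leaving out each library. Some genes that the rule would name are not reported here.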

Additional observations from a re-analysis of the deposited data

How the results depend on the processing

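Under 18 alternatives, each member called kept its direction and call wherever it was tested: the log2 difference ranged from 0.949 to 1.08 for Bdnf, 4.02 to 4.75 for Ntf3, 1.8 to 4.63 for Ntrk2, 0.312 to 3.92 for Ngfr (15 alternatives) and -4.59 to -0.636 for Gfra1 (17 alternatives). Ngfr stood under the filter without either IHC library and with a filter of 1 RPKM, which Gfra1 also did not reach. Ntf5 was called under none, and its difference ranged from -0.762 to 0.027 when each library was left out, turning sign without IHC replicate 1. The 1 member higher in OHCs became 3 with no filter and 2 with the first lanes only or the 7 lanes, where Ntrk3 or Ret entered the test, and 0 with a filter of 1 RPKM. Whether replicate numbers pair the samples is not stated. Correlations of same-numbered deviations were 0.0125 and -0.0197. They cannot decide it, because the deviations of 2 IHC libraries mirror each other. With a replicate block, 4 members had higher levels in IHCs and 1 in OHCs, and over all genes 5060 had higher levels in IHCs and 4985 in OHCs. Of the lists, the block took the 15 Trk signalling genes higher in OHCs to 9 and the 7 Bdnf regulators higher in OHCs to 4. Scaling moved the median of all genes by at most 0.0213. Depth limited Ntrk3 and Ret, which had no read in IHCs and whose folds are lower bounds.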
